A study of Homo sapiens with 6 samples.

Results

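The 9 genes described here encode the surface receptors for interferons and the proteins that carry their signal to the nucleus, namely IFNAR1, IFNAR2, IFNGR1, IFNGR2, JAK1, TYK2, STAT2, IRF9 and IRF1. They were taken by gene symbol, all 9 symbols were found once each among the 61860 genes of the deposited tables, and all 9 were among the 18740 genes with enough reads to be tested. Interferons are cytokines that put cells into an antiviral state. Type I interferons bind a receptor made of IFNAR1 and IFNAR2, to which the tyrosine kinases TYK2 and JAK1 are attached, and the kinases activate ISGF3, a complex that holds STAT2 and the DNA-binding subunit IRF9. Interferon gamma binds IFNGR1 and IFNGR2 and acts through JAK1 and JAK2, and among its targets is the gene of the transcription factor IRF1.

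RNA was measured in 786-O cells, an established human line of clear cell renal carcinoma without functional VHL, that stably carried either an shRNA against METTL3 (3 libraries) or a control shRNA (3 libraries). METTL3 is the catalytic subunit of the methyltransferase that writes N6-methyladenosine (m6A) on mRNA, and the comparison shows which transcripts differed once METTL3 was reduced. No interferon treatment is named in the labels, so the values describe unstimulated cells as far as the labels go. The labels tell no separate shRNA sequences against METTL3 apart, so an effect of METTL3 loss and another effect of the shRNA cannot be told apart, and nothing in the labels ties the libraries to separate cultures, which leaves each p-value as a measure of library spread that may be technical.

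The libraries held between 100534896 and 101473388 counts in the METTL3 shRNA group and between 102420127 and 103624456 counts in the control shRNA group. METTL3 itself had 11.3, 9.84 and 11.4 CPM in METTL3 shRNA libraries A, B and C, against 37.2, 38.1 and 37.6 CPM in control libraries A, B and C, where CPM are counts scaled to TMM-adjusted library totals. That is a log2 fold change of −1.80 (SE 0.08) with an edgeR adjusted p of 1.45e-07, in the direction of the label. Renal and epithelial markers were present, with PAX8 at 177 and 142 CPM and KRT8 at 182 and 180.2 CPM in METTL3 shRNA and control libraries, whereas the epithelial cadherin CDH1 had at most 11 counts in a library. Leukocytes and endothelium could bring interferon signalling genes of their own. The summed level of the 10 leukocyte markers ran from 88.4 to 115 CPM in METTL3 shRNA libraries and from 49.8 to 59.0 CPM in control libraries, nearly all of it CD68, a lysosomal glycoprotein, while the lymphocyte markers CD3E and MS4A1 were at 0 counts in all 6 libraries and PTPRC had at most 4. The 6 endothelial markers summed to between 0.18 and 0.20 CPM in METTL3 shRNA libraries and between 0.159 and 0.245 CPM in control libraries. The 6 markers of fibroblasts and pericytes summed to between 11.7 and 14.3 CPM in METTL3 shRNA libraries and between 10.9 and 13.4 CPM in control libraries, with RGS5 as the most abundant and COL3A1 at 0 throughout. Of that list PDGFRB was called lower, at 0.929 CPM in METTL3 shRNA libraries and 2.15 CPM in control libraries, and so was LUM, at 0.117 CPM in METTL3 shRNA libraries and 0.347 CPM in control libraries. Mitochondrially encoded genes took from 7.77% to 8.50% of counts in METTL3 shRNA libraries and from 4.23% to 4.75% in control libraries. CD68 averaged 104 CPM in METTL3 shRNA libraries and 53.5 CPM in control libraries, and the part of these differences in the results was not tested.

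Of the 9 genes, IFNGR2 and JAK1 were higher in METTL3 shRNA libraries, IRF9 was lower, and 6 did not pass the test. These 3 calls are 33.3% of the 9 genes, where 33.5% of all genes tested were called (quasi-likelihood test of edgeR at an adjusted p under 0.05), so the share of calls was near that of the transcriptome. Over all genes 16.5% were called higher and 16.9% were called lower. The median log2 fold change of the 9 genes was 0.02, beside a median of −0.0030 over all genes, and their values ran from −0.55 to 0.35. The libraries of the groups did not overlap in CPM for 4 of the 9 genes, which is 44.4%, beside 47.4% of all genes.

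**Figure D1:**
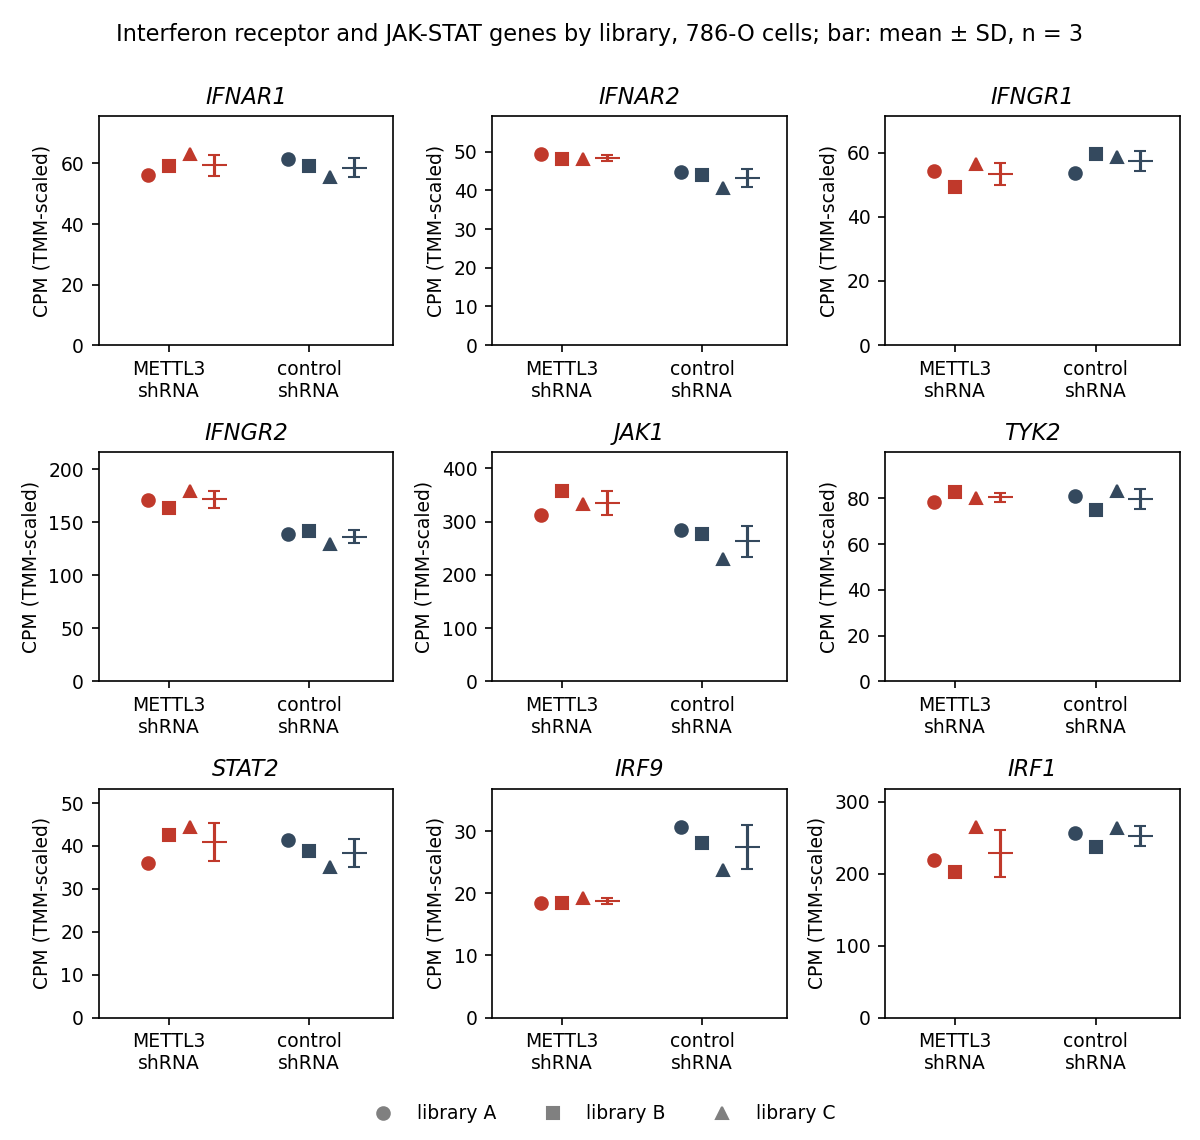
CPM of each gene (vertical axes, from 0) in METTL3 shRNA libraries (red, left) and control shRNA libraries (dark, right), with 1 point a library and the mean ± SD of 3 beside them. IRF9 lies between 18.4 and 19.3 CPM in METTL3 shRNA libraries and between 23.7 and 30.7 CPM in control libraries, while IFNAR1, TYK2 and STAT2 overlap.

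Levels between genes were compared on the deposited FPKM scale, which is per transcript length. IRF1 was the highest, with 142 ± 25.9 FPKM in METTL3 shRNA libraries and 171 ± 10.3 FPKM in control libraries (SD, n = 3 each), and STAT2 was the lowest, with 10.4 ± 1.28 FPKM in METTL3 shRNA libraries and 10.8 ± 0.72 FPKM in control libraries. In control libraries the order from high to low was IRF1, IFNGR2, JAK1, TYK2, IFNGR1, IFNAR2, IRF9, IFNAR1 and STAT2, and the ranges of neighbours in this order did not overlap. In METTL3 shRNA libraries IRF9 stood below IFNAR1, at 12.4 ± 0.50 FPKM against 14.5 ± 0.48 FPKM for IFNAR1, and the ranges of IRF1 and IFNGR2 and those of IFNGR1 and IFNAR2 overlapped. On this scale the mRNA of IFNGR2 was several times that of IFNGR1 in both groups, and the mRNA of IFNAR2 exceeded that of IFNAR1. In CPM, which is not per length, IFNAR1 was instead above IFNAR2. The CPM means were 59.4 against 48.4 in METTL3 shRNA libraries and 58.7 against 43.1 in control libraries. Receptor protein was not measured.

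**Figure D2:**
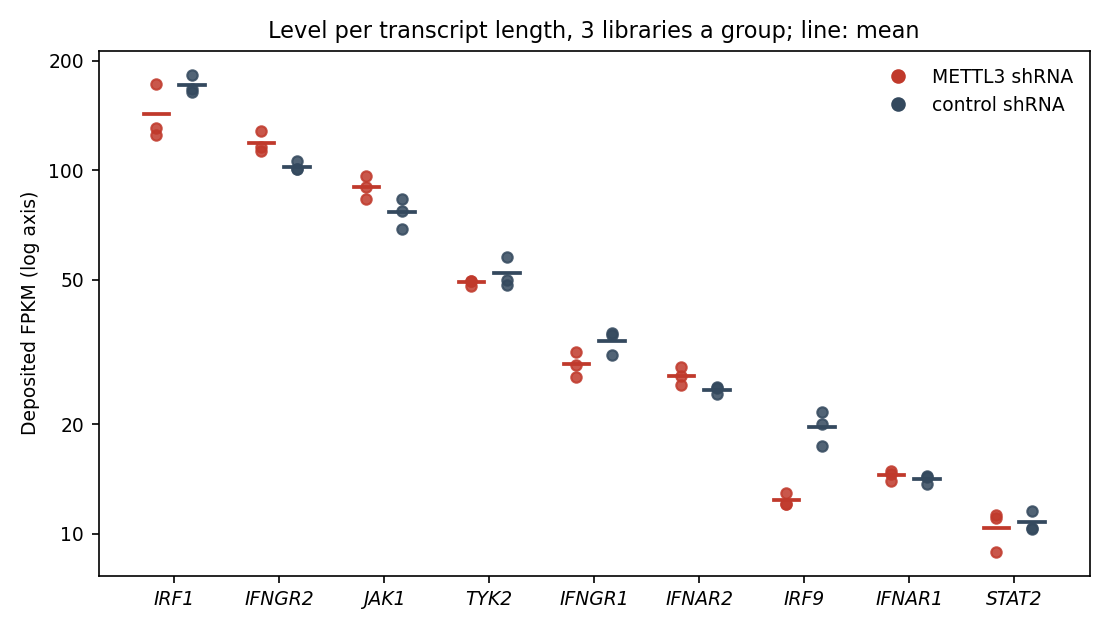
Deposited FPKM (log axis) of the 9 genes in METTL3 shRNA (red, left of each pair) and control shRNA libraries (dark), 3 points a group with a line at the mean, ordered by the control mean. IRF9 changes place with IFNAR1, at 12.4 FPKM in METTL3 shRNA libraries and 19.7 FPKM in control libraries.

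The ligands of these receptors were almost without reads. Of 21 interferon genes, 20 had too few reads to be tested, with at most 6 counts in a library, and 12 of them, IFNG among them, were at 0 counts in all 6 libraries, which allows up to 3 counts in a library, or 0.0298 CPM of the smallest unadjusted total. Interferon beta, IFNB1, had 2, 3 and 2 counts in METTL3 shRNA libraries and 2, 6 and 1 counts in control libraries. The member that could be tested was IFNE, interferon epsilon, at 0.202 ± 0.019 CPM in METTL3 shRNA libraries and 0.181 ± 0.047 CPM in control libraries (SD, n = 3 each; edgeR adjusted p = 0.736). Genes of the interferon alpha family are near-identical copies, so reads could be split between them and their counts are uncertain.

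Among the type I receptor chains, IFNAR1 had 56.1, 59.1 and 63.0 CPM in METTL3 shRNA libraries A, B and C, against 61.6, 59.0 and 55.4 CPM in control libraries A, B and C. The groups overlapped, with a log2 fold change of 0.02 (SE 0.08, 95% interval −0.15 to 0.18, edgeR adjusted p = 0.881). IFNAR2, the chain with the higher affinity for ligand, had 49.3, 48.0 and 48.0 CPM in METTL3 shRNA libraries, against 44.8, 44.0 and 40.6 CPM in control libraries. Every METTL3 shRNA library was above every control library, but the difference did not pass, with a log2 fold change of 0.17 (SE 0.07, 95% interval 0.01 to 0.32, edgeR adjusted p = 0.0960). IFNAR2 lies on chromosome 21 from 33229901 to 33265675 and IFNAR1 from 33324477 to 33359862, both on the plus strand of GRCh38. Of the exonic length of IFNAR2, 44.2% is shared with an overlapping locus on the same strand (ENSG00000249624) and 39.1% with the antisense transcript IL10RB-DT, and those loci had averages of 3.55 and 4.33 CPM in METTL3 shRNA libraries and 5.17 and 4.70 CPM in control libraries, so the IFNAR2 counts are less certain. For 7 genes of the ubiquitin ligase and kinases that tag IFNAR1 for degradation, 0 passed the test in either direction by edgeR. Beside that, 33.5% of all genes tested were called. The 7 genes had a median log2 fold change of −0.08. An unadjusted p under 0.05 was reached by 1 of them, DESeq2 called 1 lower, and 3 were lower with unadjusted library totals and with each filtered fit of FPKM. Of these, SKP1 stood at −0.21 (edgeR adjusted p = 0.0667), CUL1 at −0.15, CSNK1A1 at −0.14 and the substrate receptor BTRC at 0.08.

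IFNGR2, the chain of the interferon gamma receptor that brings in JAK2, was higher in METTL3 shRNA libraries. It had 171, 164 and 180 CPM in METTL3 shRNA libraries A, B and C, against 139, 141 and 130 CPM in control libraries A, B and C. The groups did not overlap, and the log2 fold change was 0.33 (SE 0.08, 95% interval 0.17 to 0.49, edgeR adjusted p = 0.00527), which is 25.7% higher. IFNGR1, the ligand-binding chain to which JAK1 is attached, had 54.2, 49.4 and 56.4 CPM in METTL3 shRNA libraries, against 53.7, 59.4 and 58.7 CPM in control libraries. These groups overlapped through METTL3 shRNA libraries A and C and control library A, and IFNGR1 did not pass (−0.10 on the log2 scale, SE 0.08, 95% interval −0.27 to 0.07, edgeR adjusted p = 0.347). IFNGR2 lies on chromosome 21 from 33402896 to 33479348, next to IFNAR1, and IFNGR1 on chromosome 6, minus strand, between 137197484 and 137219449. TMEM50B, on the opposite strand, shares 12.8% of the exonic length of IFNGR2 and averaged 14.6 CPM in METTL3 shRNA libraries and 15.9 CPM in control libraries.

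JAK1, the tyrosine kinase used by both receptors, was higher in METTL3 shRNA libraries, a call that rested on particular libraries. It had 312, 358 and 334 CPM in METTL3 shRNA libraries A, B and C, against 284, 276 and 229 CPM in control libraries A, B and C. Each METTL3 shRNA library exceeded each control library, and the log2 fold change was 0.35 (SE 0.10, 95% interval 0.14 to 0.55, edgeR adjusted p = 0.0138), which is 27.3% higher. Without METTL3 shRNA library B the edgeR adjusted p was 0.0661, and without control library C it was 0.0646. On the FPKM scale the groups overlapped, at 83.2, 96.3 and 90.0 FPKM in METTL3 shRNA libraries and 77.2, 83.4 and 68.9 FPKM in control libraries, and limma on log2(FPKM + 1) did not call JAK1 (0.23, adjusted p = 0.0626). TYK2, the kinase bound to IFNAR1, had 78.5, 82.5 and 80.0 CPM in METTL3 shRNA libraries, against 81.2, 74.9 and 83.3 CPM in control libraries. TYK2 overlapped in all 3 METTL3 shRNA libraries, with a log2 fold change of 0.01 (SE 0.07, 95% interval −0.15 to 0.17, edgeR adjusted p = 0.926). JAK1 spans 64833229 to 64966504 on the minus strand of chromosome 1, and TYK2 spans 10350529 to 10380676 on the minus strand of chromosome 19.

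**Figure D3:**
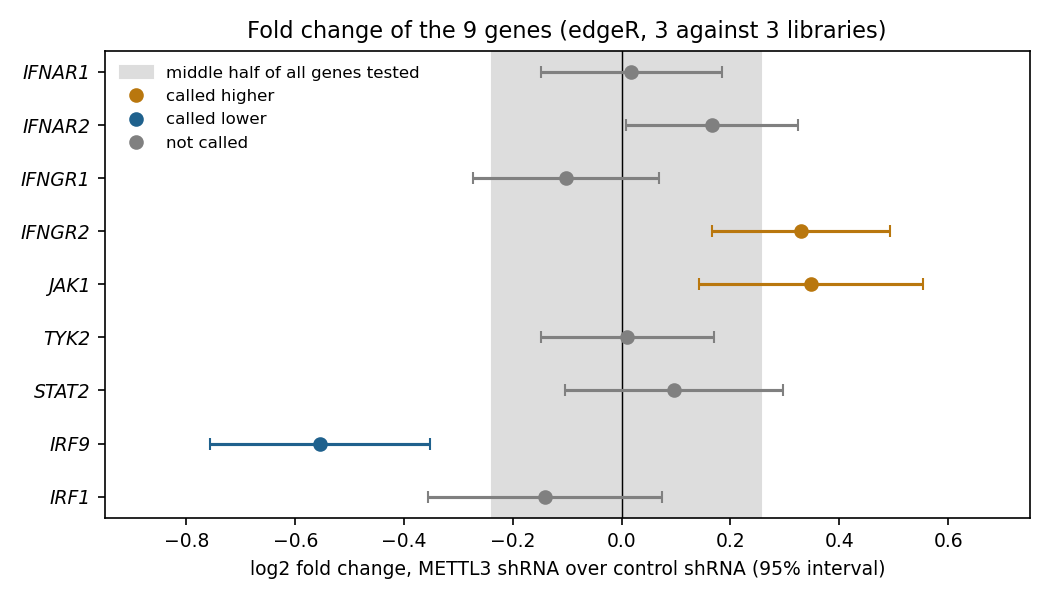
log2 fold change of METTL3 shRNA over control shRNA (horizontal axis) for the 9 genes, with 95% intervals from the edgeR fit of 3 against 3 libraries; the grey band spans the quartiles of all genes tested, −0.239 to 0.257. IFNGR2 (0.33) and JAK1 (0.35) lie above the band and IRF9 (−0.55) below it.

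Of the ISGF3 subunits IRF9 and STAT2, IRF9 fell and STAT2 did not pass. IRF9, the subunit that recognises DNA, had 18.4, 18.5 and 19.3 CPM in METTL3 shRNA libraries A, B and C, against 30.7, 28.1 and 23.7 CPM in control libraries A, B and C. The METTL3 shRNA libraries lay close together and below every control library, of which C was the lowest. The log2 fold change was −0.55 (SE 0.09, 95% interval −0.76 to −0.35, edgeR adjusted p = 8.64e-04), a fall larger in size than that of 81.6% of all genes tested in either direction. STAT2 had 36.0, 42.6 and 44.4 CPM in METTL3 shRNA libraries, against 41.3, 38.8 and 35.018 CPM in control libraries. The STAT2 groups overlapped, with a log2 fold change of 0.10 (SE 0.09, 95% interval −0.10 to 0.30, edgeR adjusted p = 0.457). IRF9 lies on the plus strand of chromosome 14 from 24161053 to 24166565 and STAT2 on chromosome 12, minus strand, between 56341597 and 56360155. An overlapping locus on the same strand shares 48.4% of the exonic length of IRF9. That locus averaged 4.02 CPM in METTL3 shRNA libraries and 6.66 CPM in control libraries, and it was also called lower (ENSG00000259529, log2 fold change −0.73, edgeR adjusted p = 0.00608), so the reads of this pair cannot be separated with certainty.

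IRF1, which binds sites related to those of ISGF3 and is induced by interferon gamma, did not pass. It had 219, 202 and 265 CPM in METTL3 shRNA libraries A, B and C, against 256, 237 and 263 CPM in control libraries A, B and C. METTL3 shRNA library C was the highest of all 6 and the other two were the lowest, so the spread within the METTL3 shRNA group (228.5 ± 32.7 CPM) was wider than in the control group (252 ± 13.9 CPM; SD, n = 3 each). The log2 fold change was −0.14 (SE 0.10, 95% interval −0.36 to 0.07, edgeR adjusted p = 0.298), and without METTL3 shRNA library C it was −0.26 and called (edgeR adjusted p = 0.0391). IRF1 is on chromosome 5, minus strand, between 132481609 and 132490798, and IRF1-AS1 on the opposite strand shares 1716 bases of its exons. IRF1-AS1 averaged 13.3 CPM in METTL3 shRNA libraries and 14.0 CPM in control libraries.

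The gamma-activated site (GAS) is a short palindrome through which interferon gamma induces genes, and the promoters of IRF9 and IRF1 are shown because they were the ones among these genes that hold its letters. Promoter windows from RefSeq on GRCh38.p14, from 250 bases before to 50 bases after a transcript start, were available for 8 of the 9 genes, with 12 windows in all; IFNAR2 had none. The motif TTCNNNGAA was searched on both strands and was present in 2 of the 8 genes, IRF9 and IRF1. It was held by 7.66% of all 35116 windows of the same length, and by at least 1 window of 9.38% of the 27305 genes in the table. The core of the site that ISGF3 binds, GAAA followed after any 2 bases by GAAA, was found on either strand in 0 of the 12 windows and in 3.57% of all windows. The capitals mark the GAS letters, whose first base lies at position −63 from the start in IRF9 (chr14:24161015-24161314, plus strand) and at position −124 in IRF1 (chr5:132490724-132491023, minus strand).
IRF9: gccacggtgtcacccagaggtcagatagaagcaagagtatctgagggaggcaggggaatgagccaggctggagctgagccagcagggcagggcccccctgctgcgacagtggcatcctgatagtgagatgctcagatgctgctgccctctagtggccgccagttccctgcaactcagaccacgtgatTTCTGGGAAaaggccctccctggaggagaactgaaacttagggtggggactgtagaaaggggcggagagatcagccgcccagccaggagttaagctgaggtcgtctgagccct
IRF1: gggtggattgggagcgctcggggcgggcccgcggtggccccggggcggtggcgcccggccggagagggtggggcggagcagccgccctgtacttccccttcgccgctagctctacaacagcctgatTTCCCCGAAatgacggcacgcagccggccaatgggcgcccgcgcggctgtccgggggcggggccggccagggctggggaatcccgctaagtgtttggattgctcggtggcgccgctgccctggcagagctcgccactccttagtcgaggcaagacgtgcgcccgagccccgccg
The match is a description of letters, and binding was not measured. IRF9 was called lower and IRF1 was not, so the genes with this motif did not share a call.

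Ratios of partner genes within a library do not depend on the scaling between libraries. The log2 ratio of IRF9 to STAT2 counts was −0.97, −1.20 and −1.21 in METTL3 shRNA libraries A, B and C, against −0.43, −0.47 and −0.56 in control libraries A, B and C, a difference of −0.64. In that pair every METTL3 shRNA library lay below every control library. The log2 ratio of IFNGR2 to IFNGR1 counts was 1.66, 1.73 and 1.67 in METTL3 shRNA libraries, against 1.37, 1.251 and 1.14 in control libraries, a difference of 0.43. In deposited FPKM, IFNGR2 was on average 4.06 times IFNGR1 in METTL3 shRNA libraries and 3.02 times in control libraries. The log2 ratio of TYK2 to JAK1 counts was −1.99, −2.12 and −2.06 in METTL3 shRNA libraries, against −1.81, −1.88 and −1.46 in control libraries, a difference of −0.34. Control library C stood apart from the other control libraries in this ratio. The log2 ratio of IFNAR2 to IFNAR1 counts was −0.19, −0.30 and −0.39 in METTL3 shRNA libraries, against −0.46, −0.42 and −0.45 in control libraries, a difference of 0.15. In FPKM the groups of this last pair overlapped, where the ratio was 1.94, 1.75 and 1.93 in METTL3 shRNA libraries and 1.76, 1.75 and 1.76 in control libraries. Each of the 4 ratios gave p = 0.1 in a two-sided exact permutation test (adjusted p = 0.1 over the 4), which is the smallest that 3 against 3 libraries allows.

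**Figure D4:**
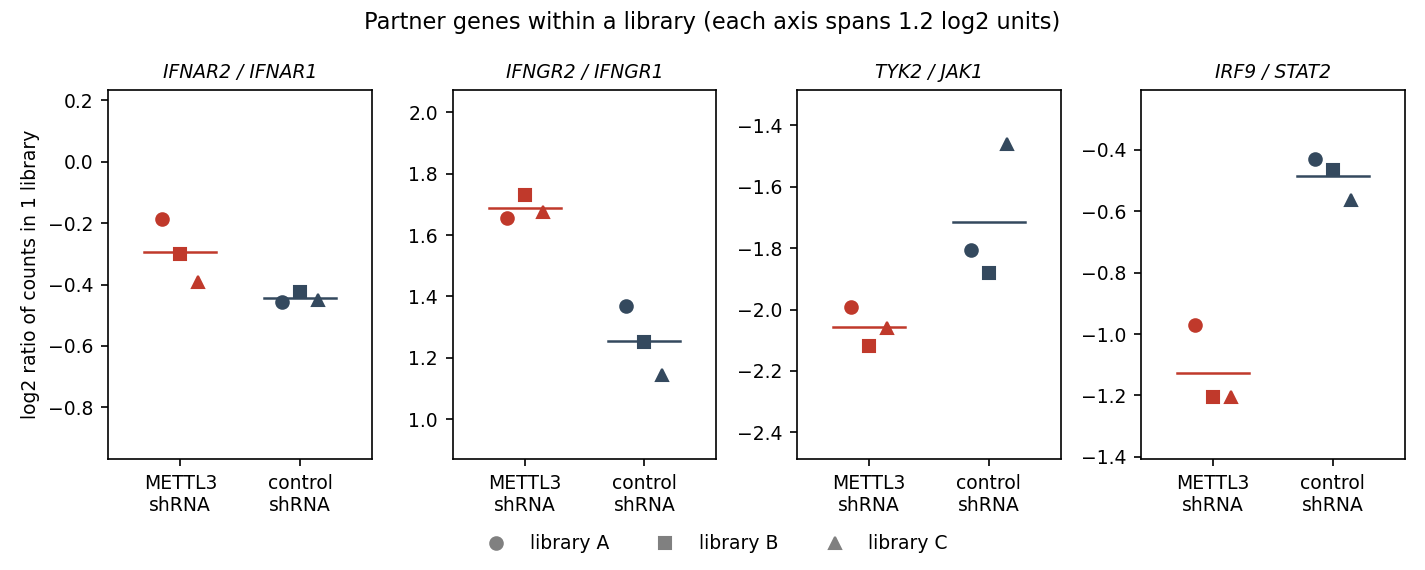
log2 ratio of the counts of partner genes within each library (vertical axes, each spanning the same range), METTL3 shRNA left and control shRNA right, with a line at the group mean. IRF9 over STAT2 averages −1.13 in METTL3 shRNA libraries and −0.49 in control libraries, and IFNGR2 over IFNGR1 averages 1.69 in METTL3 shRNA libraries and 1.254 in control libraries.

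Among other JAK and STAT genes, JAK3, a kinase of lymphoid cells, was called higher and was scarce, at 0.909 ± 0.21 CPM in METTL3 shRNA libraries and 0.264 ± 0.068 CPM in control libraries (SD, n = 3 each; log2 fold change 1.78, SE 0.26, edgeR adjusted p = 3.83e-04). No limma fit of FPKM called JAK3 higher. At no more than 0.46 FPKM in a library, JAK3 lay under the filter of 0.5 FPKM of the filtered fits. STAT5A (0.42, edgeR adjusted p = 0.0552) and STAT4 (0.57, edgeR adjusted p = 0.0696) did not pass. Of 7 further interferon regulatory factors, 5 were tested. IRF7, which drives production of type I interferon and is itself an ISGF3 target, fell to 12.9 ± 0.63 CPM in METTL3 shRNA libraries, against 19.4 ± 2.57 CPM in control libraries (SD, n = 3 each; log2 fold change −0.59, edgeR adjusted p = 8.54e-04). IRF5 rose (0.26, edgeR adjusted p = 0.0127), a call lost without control library B, with unadjusted library totals and in the 3 limma fits of FPKM, and IRF3 (−0.21) did not pass.

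Of 23 receptor chains of other cytokines that share JAK1 or TYK2, 19 were tested, 3 were higher, 4 were lower and 12 did not pass, with a median log2 fold change of −0.11. The share lower was 21.1%, near the 16.9% of all genes, and 16.5% of all genes were higher. With each filtered limma fit of FPKM 1 of the list was called higher, and with the unfiltered one 0 were higher and 0 lower. OSMR, the oncostatin M receptor and the most abundant of those called, rose to 374 CPM in METTL3 shRNA libraries, against 287 CPM in control libraries (log2 fold change 0.38, SE 0.08, edgeR adjusted p = 0.00388), and IL21R (0.82) and IL20RB (0.70) rose with means of at most 7.21 CPM in METTL3 shRNA libraries. IL7R, the interleukin 7 receptor, fell (−0.75, SE 0.10, edgeR adjusted p = 1.99e-04), as did IL6R (−0.67), IL13RA1 (−0.32) and the weakly expressed IL27RA (−0.82). IL10RB, a chain of the receptors for interferon lambda and interleukin 10 whose gene lies between IFNAR2 and IFNAR1, stood at −0.03 (SE 0.07, edgeR adjusted p = 0.806).

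Of 17 negative regulators of the pathway tested, 0 were higher, 4 were lower and 13 did not pass, with a median log2 fold change of −0.09. The share lower was 23.5%, beside 16.9% of all genes, and 16.5% of all genes were higher. SOCS2 (−0.47, SE 0.09, edgeR adjusted p = 0.00142) and SOCS4 (−0.44) are suppressors of cytokine signalling, CISH (−0.36) is a related inhibitor of STAT5, and USP18 (−0.31), itself induced by interferon, binds IFNAR2 and removes ISG15 from proteins. The number lower was 2 in each fit that left out a library other than METTL3 shRNA library C. It was also 2 with no filter on low counts and in the unfiltered fit of FPKM. SOCS1 (−0.26, edgeR adjusted p = 0.313) and SOCS3 (−0.07, edgeR adjusted p = 0.531), the inhibitors that bind JAK kinases directly, did not pass.

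Among genes that ISGF3 activates, 31 of 38 tested were lower in METTL3 shRNA libraries, 0 were higher and 7 did not pass, with a median log2 fold change of −0.52 beside −0.0030 over all genes. The share lower was 81.6%, beside 16.9% of all genes. The list was chosen with the fall of interferon-stimulated genes in these data known, so this share is a description. Leaving out 1 library at a time, the number lower ran from 25 to 31, and over all 16 alternative settings it ran from 10 to 32. The antiviral enzyme RSAD2 (−1.39), the RNA-binding protein IFIT2 (−0.9998), the ubiquitin-like modifier ISG15 (−0.96) and IFI27 (−0.85) had the smallest p-values. The 7 that did not pass were CMPK2 (−0.51), EIF2AK2 (−0.14), BST2 (−0.13), MX1 (−0.09), UBE2L6 (0.02), TRIM25 (0.02) and LGALS3BP (0.14). Of 22 tested targets of interferon gamma signalling, 8 were lower, 0 were higher and 14 did not pass, a share lower of 36.4% beside 16.9% of all genes, with a median of −0.11, and 1 gene of that list was called higher without control library C. GBP1, a guanylate-binding GTPase, fell to 42.3 ± 12.05 CPM in METTL3 shRNA libraries, against 108 ± 7.604 CPM in control libraries (SD, n = 3 each; −1.35 on the log2 scale, SE 0.15, edgeR adjusted p = 6.71e-05). The proteasome activator PSME2 (−0.73), the immunoproteasome subunit PSMB9 (−0.53) and NLRC5 (−0.62), the activator of MHC class I genes, fell as well. TAP1 (0.07), PSMB8 (0.03) and ICAM1 (−0.04), further members of that list, did not pass. The difference between the 2 lists was not tested.

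**Figure D5:**
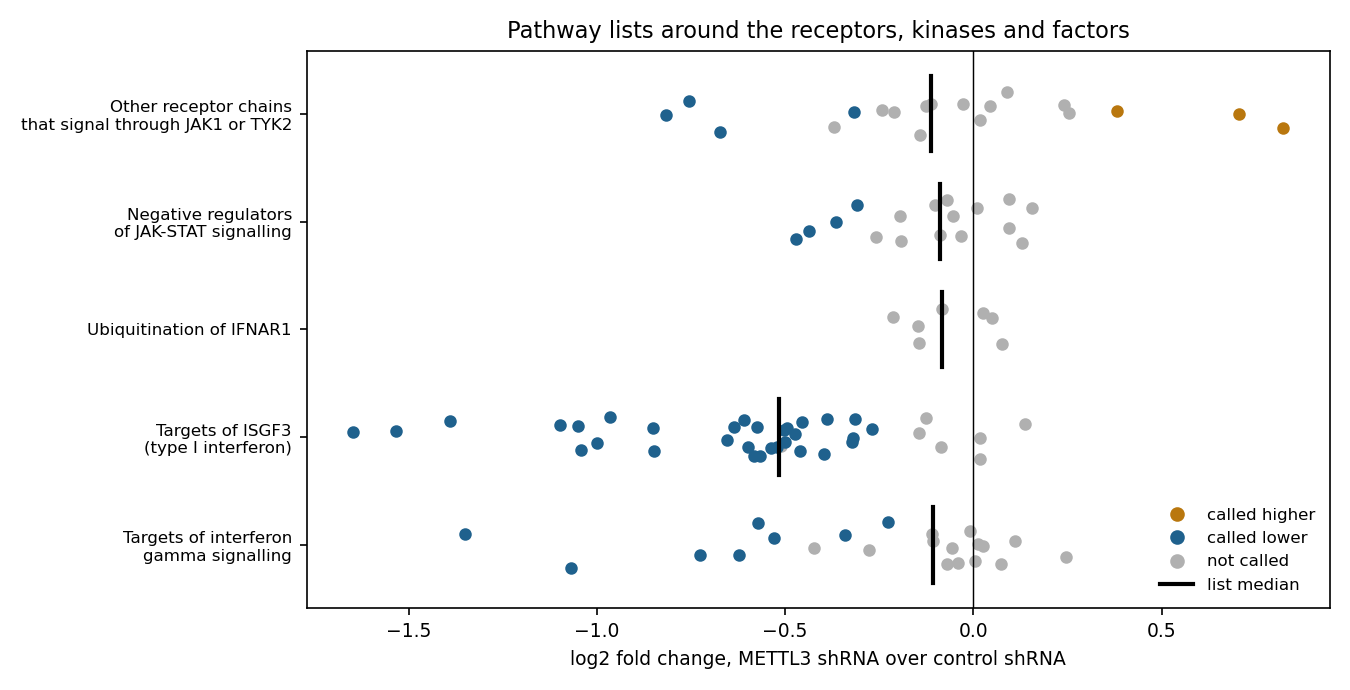
log2 fold change of METTL3 shRNA over control shRNA (horizontal axis) for every tested gene of 5 pathway lists, 1 point a gene, coloured by its call, with a black bar at the list median. The targets of ISGF3 centre on −0.52, while the other 4 lists have medians between −0.11 and −0.08.

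For the 3 genes with the largest change in size, the coding genes with the most similar CPM over the 6 libraries were found among 11386 candidates with a mean of at least 2 CPM. They were EIF4H, CNN3 and EPSTI1 for IRF9 (Pearson r from 0.994 to 0.995), PIGS, ATF2 and HLCS for JAK1 (0.995 to 0.997) and DDB2, STK24 and SLC39A11 for IFNGR2 (0.992 to 0.997). EPSTI1 is an interferon-stimulated gene and is on the list of ISGF3 targets, EIF4H encodes a translation initiation factor and DDB2 a DNA damage recognition protein. The points share 6 libraries in 2 groups, and the genes were picked for the value, so the r is a description.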

How the data were processed

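RNA was sequenced from 786-O cells with an shRNA against METTL3 or a control shRNA, 3 libraries each. Ribosomal RNA was removed and paired reads came from a DNBSEQ instrument, per the labels' protocols. GRCh38, STAR 2.7.10b and Salmon were used, per the submitters' processing notes. No source used here gives the annotation release or a strand setting. The authors deposited whole-number counts and FPKM values per Ensembl gene, 1 column a library. Control columns are named for the control shRNA, and the other 3 were assigned to METTL3 shRNA by elimination. Column letters are not tied to replicate numbers.

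The count test used edgeR 4.0.16 under R 4.3.3, with limma 3.58.1 for alternatives (filterByExpr, TMM, quasi-likelihood test, Benjamini-Hochberg adjustment over 18740 genes), with standard errors from the F statistic. The procedure was tested on simulated data. No library repeated another, since pairs within a group had a chi-square of 15.2 to 57.3 times its degrees of freedom. Counts of 1736 to 34793 lay behind each value of the 9 genes, so the spread between libraries limits precision; limits for counts of 0 cover counting error only.

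The members, the 8 pathway lists, the markers and the rule for naming genes were chosen with earlier results of these data known, and the fall of interferon-stimulated genes was among those results. Named were the 9 genes, METTL3, the up to 4 genes of lowest p in each list, the most abundant markers and any small group of calls. SOCS1, SOCS3, TAP1, PSMB8, ICAM1, IL10RB, PAX8, CDH1, PTPRC and the ISGF3 targets that did not pass were named besides, after values were seen. The motifs were also chosen after values were seen. The symbol RARRES3 of 1 list was not matched. Positions and exon overlaps came from GENCODE 29 (GRCh38), which holds 58308 of the 61860 identifiers. Alternatives were 2 other scalings, DESeq2 1.42.0, limma-voom, 2 other filters, limma on log2(FPKM + 1) and log2(FPKM + 0.1), the column letter as a block, and leaving out each library. Results for a few genes of these lists are not reported here.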

Additional observations from a re-analysis of the deposited data

How the results depend on the processing

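Over 16 alternative settings, the 9 genes gave 144 values, of which 123 kept direction and side of the threshold. IFNGR2 was called in every alternative (log2 fold change 0.21 to 0.36) and IRF9 likewise (−0.66 to −0.47), except with limma on unfiltered log2(FPKM + 1), where the adjusted p was 0.195 and 0.0567 and which calls 0.9748% of its genes. JAK1 lost its call in 5 of 16. The genes near 0 turned direction without being called. IFNAR1 stood at −0.0907 with library size alone and between −0.0239 and 0.0536 when libraries were left out. TYK2 stood at −0.101 with library size alone, −0.0783 with limma on log2(FPKM + 1), filtered or not, −0.0797 with log2(FPKM + 0.1) and between −0.0345 and 0.0413 when libraries were left out. STAT2 stood at −0.0101 with library size alone, −0.0491 with log2(FPKM + 1), filtered or not, and −0.0537 with log2(FPKM + 0.1). With unadjusted library totals the median of all genes was −0.11 on the log2 scale, and 29.6% of the calls were higher ones, against 49.4% with TMM.

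Over all genes, the number higher was 3099 and became 1985 with library size alone, 1588 and 1568 with limma on log2(FPKM + 1) and log2(FPKM + 0.1) and 204 without a filter, while 3171 lower became 399 in that last fit; leaving out a library gave 2053 to 3265 higher and 1959 to 3324 lower, the smallest without METTL3 shRNA library B. Of the 9 genes, 1 was higher with each filtered FPKM fit, 0 were higher and 0 lower with the unfiltered one, and 1 to 2 were higher and 1 to 2 lower without 1 library. The 8 lists together name 147 genes, not all of them tested, of which 5 were higher and 49 lower. Over all genes tested, 16.5% were higher and 16.9% lower. Of the 49 lower genes, 31 were ISGF3 targets, a list chosen with the fall of interferon-stimulated genes known. In the 8 lists, 1 gene was higher with each filtered FPKM fit, and 0 were higher and 13 lower with the unfiltered one. The cause of these shifts was not tested. With the column letter as a replicate block, 2 of the 9 genes were higher and 1 lower, as without it, and 37.3% of all genes were called; same-letter libraries deviated with correlations of −0.0185, −0.0493 and 0.169, so the letters were not taken to pair them. The 4 partner ratios kept their direction in all alternatives.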

Other observations

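The genomic surroundings of IRF9 held several other genes that were lower in METTL3 shRNA libraries; this locus was looked at after its values were seen. Of 16 coding genes tested within 50000 bases of IRF9, 7 were lower, 1 was higher and 8 did not pass, where 16.9% of all genes tested were lower and 16.5% higher. Those lower include REC8, a meiotic cohesin subunit (log2 fold change −0.92, edgeR adjusted p = 1.62e-04), PSME2 (−0.73), EMC9 (−0.61), the importin IPO4 (−0.55) and CHMP4A (−0.31), and 2 are coding loci without a symbol, the one that overlaps IRF9 among them. The other (ENSG00000259522, 24180395 to 24190416) overlaps the span of IPO4 (24180219 to 24188964) on the same strand. Overlapping loci may share reads, so the 7 are not independent and their share may be inflated. RNF31, the nearest upstream gene with a name, stood at −0.05 (edgeR adjusted p = 0.685), PSME1 at 0.01, and TM9SF1 was higher (0.22). Around TYK2, 2 of 8 such neighbours were lower and 1 was higher, and around STAT2, 0 of 5 were lower and 1 was higher.

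The pentamer GGACT is the commonest form of the sequence in which METTL3 methylates adenosine, and m6A itself was not measured here. In 1 reference coding transcript a gene from GENCODE 29, IRF9 held 6 copies in 1838 bases, or 3.26 per kilobase, a density above that of 99.1% of the 13820 coding genes tested that had a transcript. The median of those genes was 0.946 per kilobase, and 91.3% held at least 1 copy. The other members ran from 0.468 per kilobase in IFNGR1 to 1.84 in TYK2, with JAK1 at 1.59 and IFNGR2 at 0.90. IRF1 stood at 1.68 per kilobase. The count of letters was chosen after values were seen, and its part in any difference was not tested.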
